A study of Mus musculus with 68 samples.

Results

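Prostate tumours of OPN-null TRAMP mice were compared between a late and an early age on 9 of the 68 arrays of the series. The late group held 3 animals, OT2 and OT3 at 27 weeks and OT6 at 24 weeks. The early group held 6 animals, OT8, OT9, OT11, OT12 and OT13 at 16 weeks and OT14 at 17 weeks. These arrays were chosen by genotype and age in the labels and by no measured value. Each of the 9 mice is labelled OPN-/-TRAMP +/-, so the homozygous loss of OPN and a single TRAMP allele are shared by both ages. TRAMP mice express the SV40 T antigens under a rat probasin promoter, which is androgen-regulated and acts in prostate epithelium, so the transgene is tied to that cell type and its androgen response. Each array stands for 1 animal with its own code, and the animals of an age group may share a litter or cage, which the labels do not give. The labels give "prostate tumors" as the tissue of each sample and no histology. Levels are log2 signals of a microarray with 1 array per animal, given per probe set, the probes that read 1 gene. Differences are late minus early on that scale, and a gene is said to rise, fall or be called where its p-value from limma, adjusted over all probe sets, was under 0.05. The SE and p-value of a difference between these ages rest on a spread per probe set pooled over 38 transgenic arrays of the series. They thus do not measure the scatter of the 3 late tumours alone, whose values are given singly for many genes.

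Further pairs of groups served for comparison. TRAMP +/- mice with OPN intact gave 7 late arrays at 24 to 25 weeks and 7 early arrays at 16 weeks. SPARC-/- TRAMP +/- mice gave 9 late arrays at 24 to 29 weeks and 6 early arrays at 18 to 19 weeks. OPN-/- mice without the transgene gave 3 late arrays at 24 weeks and 5 early arrays at 16 to 17 weeks. The fits with these last mice also held other mice without the transgene, which add to the spread used there. TRAMP -/- mice gave 6 late arrays at 24 weeks and 4 early arrays at 16 weeks. SPARC-/- TRAMP -/- mice gave 4 late arrays at 25 to 27 weeks and 7 early arrays at 16 to 18 weeks.

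Osteopontin (OPN), the product of Spp1, is a secreted phosphoprotein of the SIBLING family that binds integrins and CD44. The large T antigen of SV40 binds and inactivates the p53 and RB proteins. Tumours of the TRAMP prostate start as lesions of luminal epithelium, which depends on the androgen receptor and secretes seminal proteins such as probasin. Some progress to neuroendocrine carcinomas, in which cells lose luminal and junctional genes and take up genes of neurosecretory granules and synapses.

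Array quality differed between the ages. The separation of positive from negative control probe sets, given as an area under the curve (AUC) that is higher for better arrays, was 0.720 in OT2, 0.683 in OT3 and 0.721 in OT6, and 0.723 to 0.745 (median 0.741) in the early tumours. The groups did not overlap (means of 0.708 ± 0.0216, SD, n = 3 against 0.739 ± 0.00802, n = 6), and a 2-sided exact permutation test gave p = 0.0119, the lowest value possible with 84 splits. The 6 control probe sets named for SV40 averaged 8.35 in OT2, 7.32 in OT3 and 8.01 in OT6 against 6.65 to 8.17 (median 7.00) early, a difference of 0.70 that did not pass a 2-sided exact permutation test (p = 0.0952). The OPN-null mice without the transgene had 5.08 to 5.52 on these probe sets, below each tumour. Correlations between arrays over the target probe sets were 0.954 to 0.980 for pairs of early tumours, 0.925 to 0.964 for pairs of late tumours and 0.866 to 0.909 between the ages. Spp1 itself was not analysed here, since none of the named probe sets carries that symbol. Sparc measured 6.81 in OT2, 6.72 in OT3 and 6.88 in OT6 against 6.35 to 6.80 (median 6.51) early and did not pass the test (difference 0.26, adjusted p = 0.32).

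**Figure D1:**
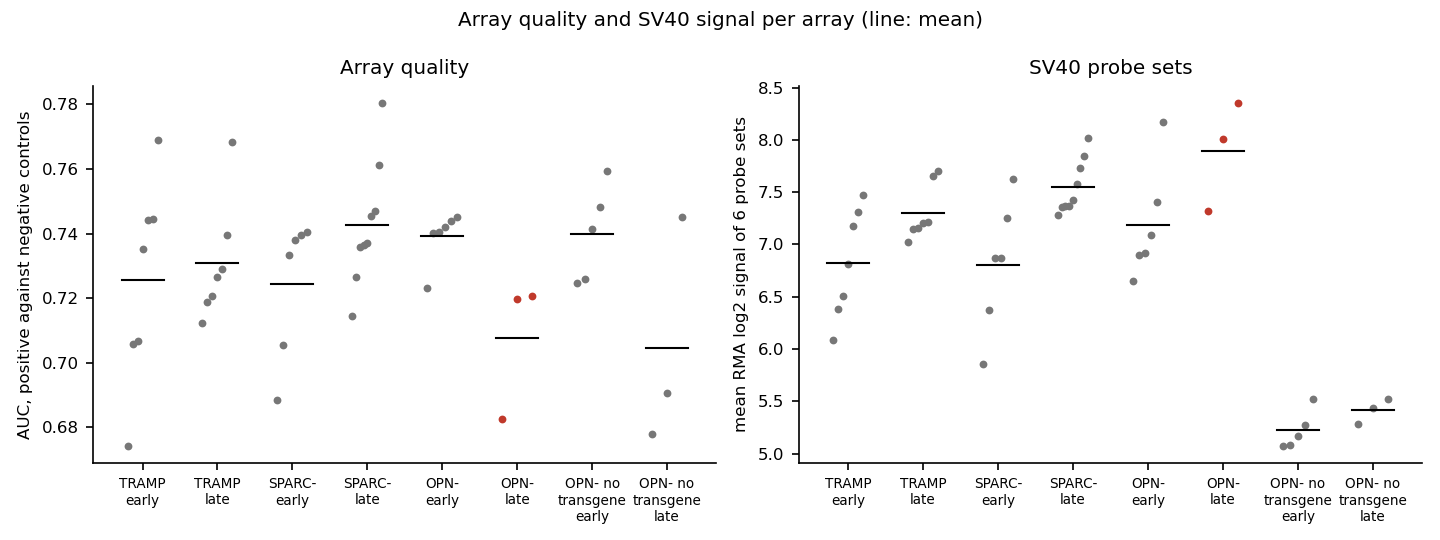
Array quality (left, AUC of positive against negative control probe sets) and the mean log2 signal of 6 SV40 control probe sets (right) for each array of the TRAMP groups and of the OPN-null mice without the transgene. Points are animals and lines are group means. The 3 late OPN-null TRAMP arrays, in red, have an AUC of 0.683 to 0.721, under the lowest early OPN-null TRAMP array at 0.723, and their SV40 signal overlaps the early range.

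Neuronal, neurosecretory and cell division genes were higher in the late tumours, and secretory luminal, epithelial junction, smooth muscle and endoplasmic reticulum genes were lower. Of 22206 target probe sets tested with limma, 4969 had an adjusted p under 0.05 (22.4%), 2839 higher (12.8%) and 2130 lower (9.59%) in late tumours. The 3 late arrays lay outside the range of the 6 early arrays for 4603 probe sets (20.7%), and for 3568 of those called, 1973 higher and 1595 lower. A difference of at least 1 on the log2 scale was reached by 382 of the called probe sets that were higher and 794 that were lower. The median over all probe sets was 0.06. Called falls were concentrated among bright probe sets, with 23.3% called lower and 10.8% called higher in the brightest of 5 equal groups by mean signal, against 1.42% and 15.7% in the dimmest, where the median difference was 0.15. Without arrays of an AUC under 0.7, which removes OT3, 4533 probe sets were called, among them 3622 (72.9%) of the 4969. In a fit to the late and early OPN-null TRAMP arrays alone 4386 were called, with 3868 (77.8%) of the 4969. With AUC as a covariate 4456 were called, with 3304 (66.5%) of the 4969. With that covariate the following genes named below were no longer called: Apbb2, C1qa, Camp, Cd4, Chat, Col3a1, Ctla4, Cxcl13, Fabp4, Gbp3, Gsn, Il6, Lcn2, Ltf, Lyz2, Mertk, Mmp14, Msr1, Myot, Nfkbia, Pate12, Pate4, Pfkp, Postn, Pou3f2, Prrx1, Psca, Psmb9, Rbl2, Spock2, Srm, Svs2, Tnn, Twist2, Upk1a, Vim and Xbp1. The part of array quality in the differences was not tested beyond these settings. In pieces of tumour, fewer cells of a type and less RNA per cell cannot be told apart.

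The 12 largest rises were Slc25a21, Ipw, Ccn3, Elavl4, Elavl3, Syt1, Epha7, Rtn1, Troap, Scn3a, Pcdh8 and Grm7, from 5.39 down to 2.94 on the log2 scale. They include a mitochondrial carrier (Slc25a21), an imprinted non-coding RNA (Ipw) and a matricellular protein (Ccn3) as well as the neuronal genes Elavl4, Elavl3, Syt1, Scn3a and Grm7. The 12 largest falls were those of Svs5, Pbsn, Pate14, Pate9, Tspan1, Tgm4, Actg2, Ndufa1, Pigr, Pate4, Zfp992 and Defb50, from -7.11 to -4.36. Of these, Ndufa1, a subunit of mitochondrial complex I, measured 4.87 in OT2, 4.94 in OT3 and 5.98 in OT6 against 9.36 to 10.56, and the zinc finger gene Zfp992 4.63 in OT2, 4.38 in OT3 and 5.32 in OT6 against 8.66 to 9.87 (median 9.06). The rule that chose these 24 required late and early ranges to be apart. OT3, the array with the lowest AUC, was the late tumour nearest to the early ones in 10 of the 12 rises. In the 12 falls the nearest was OT3 in 5, OT6 in 5 and OT2 in 2. Negative control probe sets spread widely (median 5.39 and 95th percentile 9.19 of their means over the 9 OPN-null TRAMP arrays). The low end of these differences thus has no clear floor, and no fold changes are given.

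**Figure D2:**
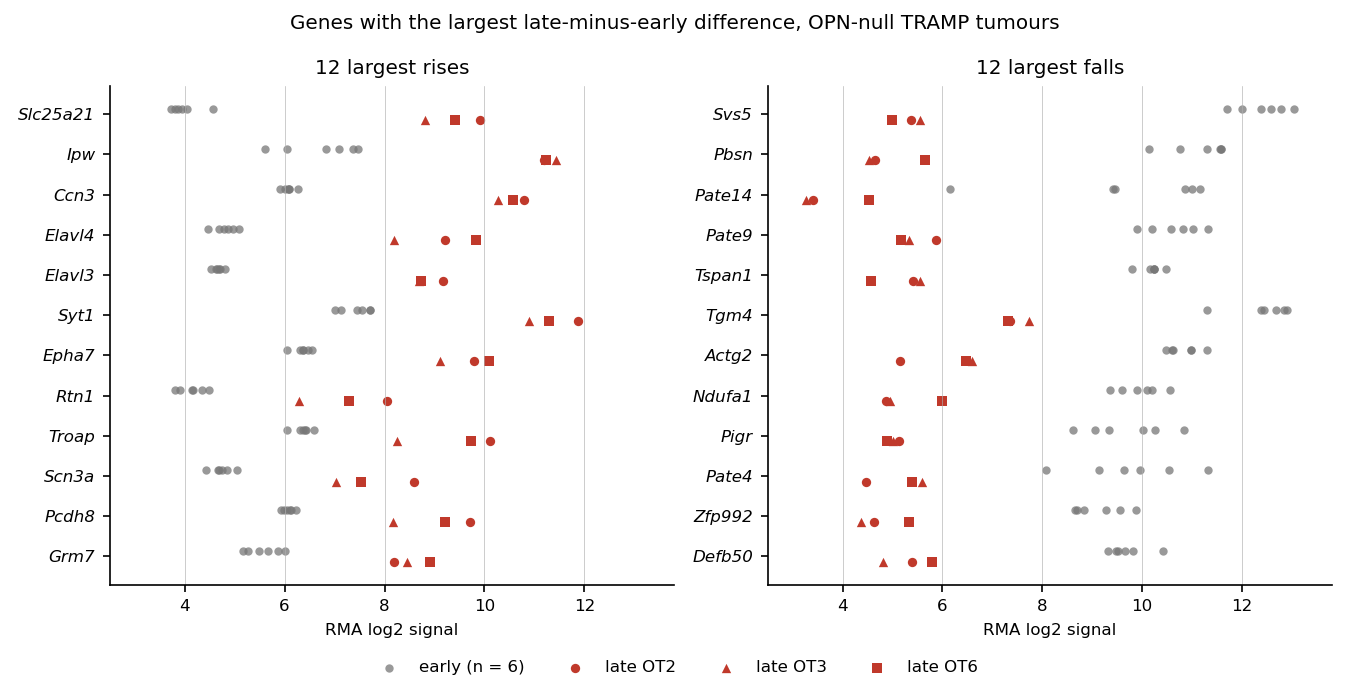
RMA log2 signal of the 12 genes with the largest rises (left) and the 12 with the largest falls (right) in each OPN-null TRAMP tumour. Grey points are the 6 early tumours and red symbols the 3 late tumours. Slc25a21 lies at 8.80 or above in late and at 4.56 or below in early tumours, and Pbsn at 5.66 or below in late and at 10.13 or above in early tumours. The rule that chose the genes required the ranges to be apart.

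Genes of neuronal RNA processing and synaptic release rose together. Of 38 measured genes of a list of synaptic and neuronal genes, 26 rose and 0 fell, against 12.8% and 9.59% of all probe sets, and the median difference was 0.63 against 0.06. This and the other gene lists were chosen with earlier results of these data known. Their counts beside all probe sets thus describe the lists and test nothing. Elavl4, which encodes the neuronal RNA-binding protein HuD, measured 9.20 in OT2, 8.19 in OT3 and 9.84 in OT6 and 4.47 to 5.08 (median 4.82) in early tumours, and rose by 4.27 (SE 0.21, adjusted p = 8.07e-18). Its relative Elavl3 measured 9.18 in OT2, 8.68 in OT3 and 8.73 in OT6 against 4.53 to 4.81 (median 4.67) and rose by 4.20 (SE 0.21, adjusted p = 5.7e-18). In both genes each late tumour lay well above the highest early one. Among the RNA-binding and splicing genes 6 of 9 rose, including Nova1 by 2.08, Rbfox1 by 1.26 and Celf3 by 1.18, while the splicing regulator Srrm4 differed by 0.22 (adjusted p = 0.414).

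The vesicle fusion genes rose in 9 of 13 cases. Syt1, the calcium sensor of fast transmitter release, measured 11.87 in OT2, 10.90 in OT3 and 11.29 in OT6 against 7.01 to 7.71 (median 7.49), with a rise of 3.93 (SE 0.31, adjusted p = 2.01e-12). Snap25, a SNARE protein of the plasma membrane, measured 8.66 in OT2, 6.50 in OT3 and 8.45 in OT6 against 4.99 to 5.93 (median 5.75) and rose by 2.24 (adjusted p = 1.04e-08). Its OT3 value was lower than those of the other late tumours but still above the early range. Rims2, a scaffold of the active zone, rose by 1.80, the vesicle protein Syp by 1.63, Stx1a by 0.81 and Unc13a by 0.74. Vamp2, Syn1, Syn2 and Syt4 did not pass the test, with differences of -0.09, 0.27, -0.11 and 0.32.

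Channel and cytoskeletal genes followed. Among 6 ion channel genes 4 rose, namely the sodium channel genes Scn3a by 2.98 and Scn8a by 1.51 and the calcium channel genes Cacna1d by 1.11 and Cacna1b by 0.67. Scn3a measured 8.59 in OT2, 7.03 in OT3 and 7.53 in OT6 against 4.43 to 5.04 (median 4.72) early. Among 10 neuronal cytoskeleton genes 7 rose, including Map2 (1.38), Dcx (1.27), Gap43 (1.18) and Tubb3 (0.54), while Stmn2 measured 7.39 in OT2, 7.74 in OT3 and 7.80 in OT6 and overlapped the early range of 6.89 to 7.82 (median 7.55). The markers of autonomic neurons and glia, cells that a prostate also holds, gave 1 of 11 higher (Chat, 0.44) and 1 lower (Foxd3, -0.40). That is 18.2% called, against 22.4% of all probe sets. The mean level of these 11 markers was 6.0 to 6.17 in the late tumours and 5.90 to 6.14 in the early ones. Outside this list, the ephrin receptor Epha7 measured 9.78 in OT2, 9.11 in OT3 and 10.10 in OT6 against 6.05 to 6.56 (median 6.37), the protocadherin Pcdh8 9.71 in OT2, 8.16 in OT3 and 9.21 in OT6 against 5.92 to 6.22 (median 6.08), and the metabotropic glutamate receptor Grm7 rose by 2.94. Rtn1, a reticulon of neurons and neuroendocrine cells, rose by 3.06 from an early range of 3.80 to 4.48 (median 4.15). The calls of Cacna1b (OT2), Chat (OT3 or OT6) and Foxd3 (OT2 or OT3) were lost without the tumour named, at an adjusted p of up to 0.0978.

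Classical neuroendocrine genes rose less evenly. Of 26 measured, 10 rose and 2 fell, against 12.8% and 9.59% of all probe sets, with a median of 0.38. Among the transcription factors, Insm1 measured 6.68 in OT2, 6.76 in OT3 and 6.04 in OT6 against 4.67 to 5.43 (median 5.09) and rose by 1.46 (SE 0.19, adjusted p = 3.07e-07). Prox1 rose by 1.56, with a high value in OT2 (8.56 in OT2, 6.68 in OT3 and 7.46 in OT6; early 5.84 to 6.23 (median 6.0)), and Pou3f2 by 0.37 (adjusted p = 0.0411). The stem cell factor Sox2 fell by 0.59 (adjusted p = 0.0375), and Rest, the repressor of neuronal genes in other cells, fell by 0.45 (adjusted p = 0.0428), with 4.21 in OT2, 4.16 in OT3 and 3.59 in OT6 against 4.32 to 4.60 (median 4.43). Other factors of the list did not pass the test, with Foxa2 at -0.12 (adjusted p = 0.579), Nkx2-1 at 0.16 (adjusted p = 0.466), Onecut2 at 0.30 (adjusted p = 0.106), Myt1 at 0.25 (adjusted p = 0.168) and St18 at 0.47 (adjusted p = 0.228). Leaving out 1 tumour, given in brackets, ended the calls of Sox2 (OT3, OT6, OT8, OT11 or OT13), Rest (OT6, OT8, OT9, OT13 or OT14) and Pou3f2 (OT2, OT6, OT9, OT11 or OT13) (adjusted p of up to 0.348).

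Granule and amine genes gave the other rises. Chga, the granule protein chromogranin A, measured 7.30 in OT2, 7.14 in OT3 and 7.38 in OT6 against 5.70 to 6.13 (median 6.0) and rose by 1.33 (adjusted p = 4.23e-07). Chgb rose by 1.40, Scg3 by 1.11 and Resp18 by 0.87. Ddc, the enzyme that makes dopamine and serotonin from their precursors, measured 9.88 in OT2, 9.27 in OT3 and 9.57 in OT6 against 7.27 to 7.81 (median 7.47) and rose by 2.06 (adjusted p = 1.09e-09). Uchl1 and Ncam1 rose by 0.97 and 1.07. The peptide hormone genes Grp, Sst and Nts stayed within -0.09 to 0.14 of the early mean and did not pass the test. Nor did Scg2 (0.06), Scg5 (0.24), Dll3 (0.38), Eno2 (0.58) and Cpe. The level of Cpe was high at both ages, with 12.50 in OT2, 12.25 in OT3 and 12.50 in OT6 against 11.61 to 12.35 (median 12.04) early. Some of these were called in other fits. Cpe was called with AUC as a covariate (adjusted p = 0.0203) and Dll3 without OT3 (adjusted p = 0.0305). Eno2 was called in a fit to the late and early OPN-null TRAMP arrays alone (adjusted p = 0.0215) and without OT2 (adjusted p = 0.0388). Scg5 was called without arrays of an AUC under 0.7 (adjusted p = 0.0430).

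The largest rise of all was that of Slc25a21, and several of its neighbours on the chromosome rose with it. This mitochondrial carrier of oxodicarboxylates measured 9.91 in OT2, 8.80 in OT3 and 9.42 in OT6 against 3.73 to 4.56 (median 3.91) and rose by 5.39 (SE 0.28, adjusted p = 1.59e-17). It neighbours Pax9, Nkx2-1, Mbip and Foxa1, and of 10 measured genes of that neighbourhood 4 rose, Slc25a21 included, and 0 fell. Over all probe sets 12.8% rose and 9.59% fell. The count of 4 is raised by Slc25a21 itself, the gene with the largest rise. Pax9, a paired box transcription factor, measured 10.06 in OT2, 7.93 in OT3 and 10.20 in OT6 against 7.42 to 7.85 (median 7.73), so OT2 and OT6 were high and OT3 lay just above the early range. Brms1l rose by 0.91 (adjusted p = 0.00851) but measured 5.91 in OT3, inside the early range, and Mbip rose by 0.81. Foxa1 and Nkx2-1, the transcription factors that name the interval, differed by -0.23 (adjusted p = 0.506) and 0.16 (adjusted p = 0.466). Ipw, a non-coding RNA of the imprinted Snrpn and Ube3a cluster, measured 11.20 in OT2, 11.44 in OT3 and 11.23 in OT6 against 5.60 to 7.46 (median 6.96) and rose by 4.56 (adjusted p = 1.73e-10). Of the 7 measured genes of that cluster, Ndn also rose (0.69, adjusted p = 0.0199) and the remaining ones did not pass the test. With 1 tumour left out, the calls of Brms1l (OT2 or OT6) and Ndn (OT6) were lost, with an adjusted p of up to 0.0968.

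Cell division genes rose in 22 of 32 cases and fell in 0, against 12.8% and 9.59% of all probe sets, with a median of 0.73. Of the 16 genes of G2 and mitosis 13 rose, and of the 16 genes of G1, S phase and replication 9 rose. Cdk1, the kinase that drives entry into mitosis, measured 6.08 in OT2, 5.34 in OT3 and 6.30 in OT6 against 4.21 to 4.65 (median 4.38) and rose by 1.49 (SE 0.20, adjusted p = 6.11e-07). Pcna, the sliding clamp of replication, measured 9.26 in OT2, 9.44 in OT3 and 9.18 in OT6 against 6.78 to 8.15 (median 7.66) and rose by 1.73 (adjusted p = 1.28e-05), and cyclin Ccne2 measured 11.49 in OT2, 11.05 in OT3 and 11.17 in OT6 against 8.91 to 10.43 (median 9.75). The spindle genes Tpx2, Kif20a and Bub1 rose by 1.45, 1.30 and 1.27, and Troap, a spindle-associated protein outside the list, by 3.0. Mki67, the proliferation marker, rose by 1.08 (adjusted p = 0.0114) with 8.69 in OT2, 7.27 in OT3 and 7.84 in OT6 against 6.59 to 7.52 (median 6.75), so OT3 overlapped the early tumours. Mcm2, Mcm3, Mcm5, Mcm6 and Aurkb did not pass the test (0.51, 0.21, 0.49, 0.13 and -0.12). The list score was 0.66, 0.23 and 0.65 in OT2, OT3 and OT6 and -0.51 to 0.0 in early tumours, OT14 being the lowest and OT13 the highest; it is the mean of the members' log2 values, each centred on the 9 tumours. The call of Mki67 (OT2) was lost without the tumour named, at an adjusted p of up to 0.156.

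The upstream sequence of Cdk1 shows the letters on which mitotic promoters are often described. The 250 bases before its RefSeq start (chr10:69352913-69353162, minus strand, GRCm38.p6) hold CCAAT 3 times and TTTGAA, the core of the cell cycle homology region (CHR), 2 times, counting both strands. Capitals mark both motifs, and ATTGG is CCAAT read on the opposite strand.
Cdk1: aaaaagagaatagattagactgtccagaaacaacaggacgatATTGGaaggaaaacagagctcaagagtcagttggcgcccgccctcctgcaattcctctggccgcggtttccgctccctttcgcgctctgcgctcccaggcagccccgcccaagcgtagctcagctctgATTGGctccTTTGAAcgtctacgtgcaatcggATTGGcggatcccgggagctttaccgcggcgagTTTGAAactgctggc
Of the 26 list members with a promoter in RefSeq, 20 held CCAAT and 8 held TTTGAA in the same window, against 37.5% and 18.3% of all 27025 genes with a promoter (33.8% and 16.0% of 32851 promoters). Among the 18 of them that were called, 14 held CCAAT and 6 TTTGAA. These are matches of letters, and binding was not measured.

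Genes around the p53 and RB proteins moved both ways, with 9 of 17 higher and 3 lower, and 5 higher and 2 lower without OT2. Of all probe sets 12.8% were higher and 9.59% lower. The RB-regulated E2f1 and E2f2 rose by 1.19 and 1.09, although OT3 overlapped the early range in both. Mycn, a driver of neuroendocrine tumours, measured 5.40 in OT2, 4.99 in OT3 and 5.81 in OT6 against 4.16 to 4.67 (median 4.36) and rose by 1.03 (adjusted p = 4.02e-06), while Myc differed by -0.79 (adjusted p = 0.0937). In a fit to the late and early OPN-null TRAMP arrays alone Myc was called lower at the same difference (adjusted p = 0.00621). The G1 kinase gene Cdk6 rose by 1.35, the kinase inhibitor Cdkn2c by 1.04 and Rb1 itself by 0.47. The RB relative Rbl2, the cyclin Ccnd2 and the p53 target Ccng1 fell (-0.85, -0.45 and -1.30). Of the p53 targets, Sesn2 rose by 0.90, Gadd45a by 0.47 and Mdm2 by 0.44, and Cdkn1a, Bbc3 and Zmat3 did not pass the test (0.38, 0.29 and -0.11). Among 10 chromatin regulators 5 rose and 0 fell. Ezh2, the methyltransferase of Polycomb complex PRC2, measured 10.69 in OT2, 10.75 in OT3 and 10.68 in OT6 against 9.08 to 9.42 (median 9.27) and rose by 1.45 (adjusted p = 5.02e-06), and the DNA methyltransferases Dnmt3a and Dnmt1 rose by 1.04 and 0.52 and Uhrf1, which guides Dnmt1 to DNA, by 0.62. The PRC2 subunits Eed and Suz12 did not pass the test (-0.03 and 0.56). Leaving out 1 tumour, given in brackets, ended the calls of Ccng1 (OT2), Rbl2 (OT3), Gadd45a (OT2), Mdm2 (OT2, OT3, OT6, OT8, OT9, OT13 or OT14) and Dnmt1 (OT2) (adjusted p of up to 0.109).

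**Figure D3:**
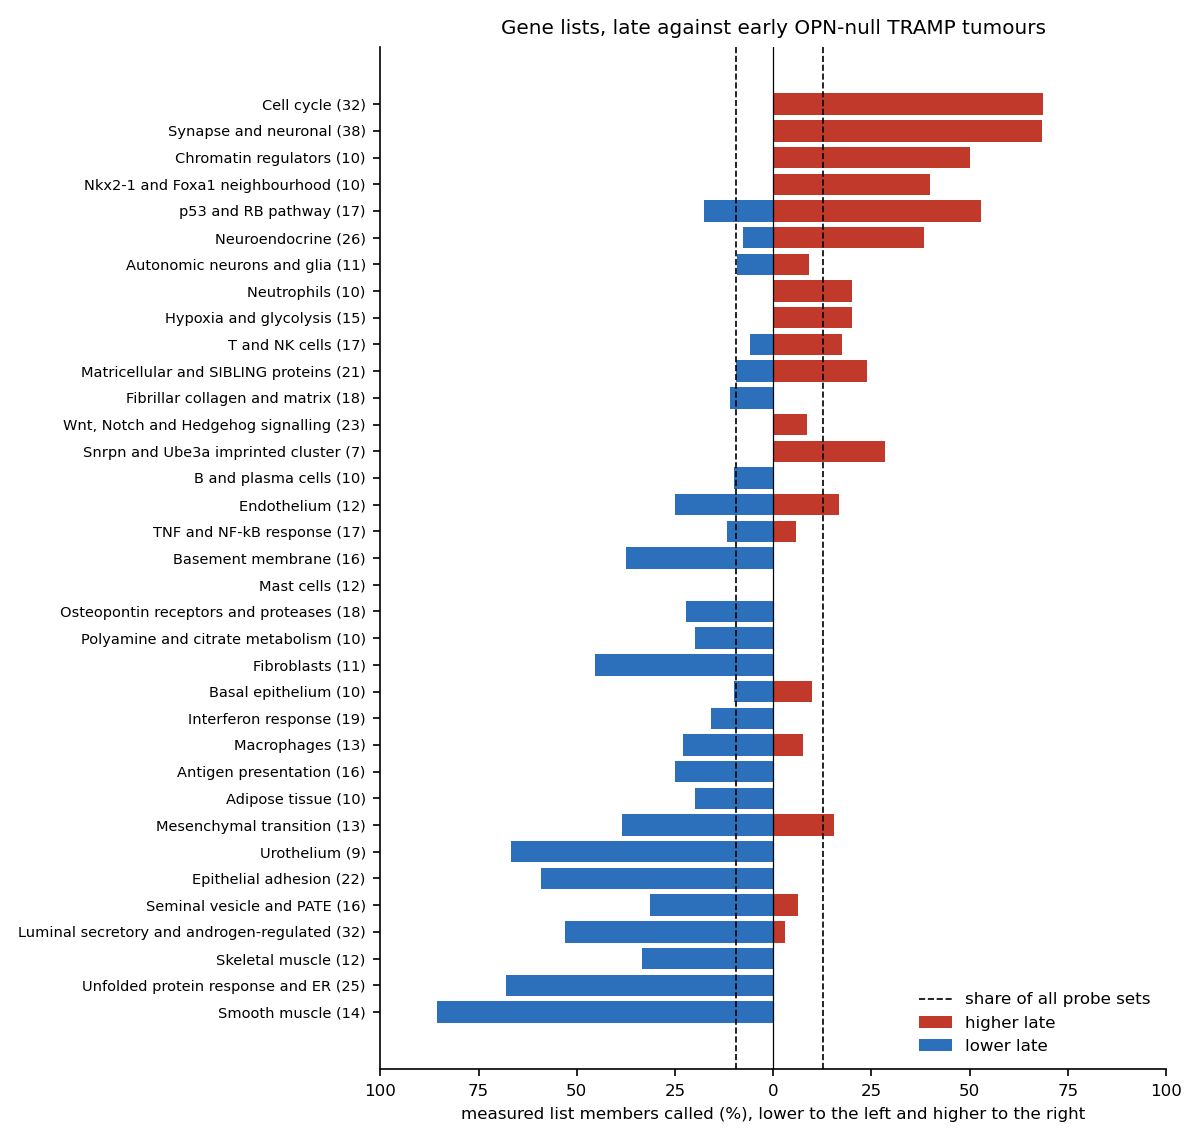
Share of the measured members of each gene list (number in brackets) called higher (right) or lower (left) in late than in early OPN-null TRAMP tumours, ordered by median difference. Dashed lines are the shares over all probe sets, 12.8% higher and 9.59% lower. The lists were chosen with earlier results of these data known. Cell cycle and synaptic genes stand at the top with 22 of 32 and 26 of 38 called higher, and smooth muscle at the foot with 12 of 14 called lower.

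Luminal secretory genes fell, and with them part of the androgen-regulated genes. Of 32 measured, 17 fell and 1 rose, against 9.59% and 12.8% of all probe sets, with a median of -0.93. The secretory members fell in 10 of 15 cases with a median of -3.37, the other androgen-regulated genes in 4 of 10 cases and the receptors and cofactors in 3 of 7. Pbsn, the gene of the androgen-regulated secretory protein probasin, measured 4.66 in OT2, 4.52 in OT3 and 5.66 in OT6 against 10.13 to 11.59 (median 11.43) and fell by 6.20 (SE 0.64, adjusted p = 2.23e-09). Tgm4, the prostate transglutaminase that clots semen, measured 7.35 in OT2, 7.73 in OT3 and 7.30 in OT6 against 11.30 to 12.91 (median 12.55) and fell by 4.96 (adjusted p = 1.1e-07). The late values of Pbsn lay among the negative controls, of which 42.2% were lower, against 99% in early tumours.

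Other secretory genes fell likewise. Pigr, the receptor that carries immunoglobulin A across epithelium, measured 5.12 in OT2, 5.02 in OT3 and 4.90 in OT6 against 8.62 to 10.84 (median 9.68) and fell by 4.68. Defb50, Wfdc15b, Apof, Mmp7 and Msmb fell (-4.36, -3.98, -3.51, -3.48 and -3.37). The luminal keratin genes Krt18 and Krt8 fell (-2.10 and -1.10), and Gata2, a partner of the androgen receptor (-1.43). The androgen-regulated genes Tmprss2, Azgp1, Zbtb16 and Slc45a3 fell (-1.30, -1.48, -1.08 and -0.78). Among those that did not pass the test, Fkbp5 measured 8.71 in OT2, 8.41 in OT3 and 8.69 in OT6 against 8.43 to 9.99 (median 9.21), Ndrg1 differed by 0.05 and Klk1 by 0.11. Hoxb13, the homeobox gene of the prostate lineage, differed by -0.70 (adjusted p = 0.0606) and was 6.18 in OT3 against 7.41 and 7.35 in the others. Homer2, a scaffold protein, rose by 0.52. With 1 tumour left out, the call of Homer2 (OT2, OT6, OT8, OT11, OT13 or OT14) was lost, with an adjusted p of up to 0.236.

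The endogenous Pbsn promoter is shown because the TRAMP transgene is driven by its rat counterpart. Between the ages Pbsn differed by -6.20 (adjusted p = 2.23e-09), and the SV40 probe sets, late minus early, by 0.70 (exact permutation p = 0.0952). The 250 bases before the RefSeq start of Pbsn (chrX:77853501-77853750, minus strand, GRCm38.p6) hold the androgen response half-site AGAACA once, counting both strands, in capitals.
Pbsn: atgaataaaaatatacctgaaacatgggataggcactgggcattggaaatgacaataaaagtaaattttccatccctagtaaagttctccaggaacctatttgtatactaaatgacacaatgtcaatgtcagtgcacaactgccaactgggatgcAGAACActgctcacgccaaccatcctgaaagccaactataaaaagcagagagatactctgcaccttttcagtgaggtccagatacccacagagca
Of 22 luminal list members with a promoter in RefSeq, 6 held this half-site within 250 bases, against 18.2% of all genes with a promoter (16.1% of promoters), and of the 13 called members 4 did. The rat sequence used in the transgene was not analysed here.

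Epithelial junction genes fell in 13 of 22 cases and rose in 0, against 9.59% and 12.8% of all probe sets, with a median of -0.66. Cdh1, the gene of E-cadherin, measured 6.64 in OT2, 6.79 in OT3 and 5.77 in OT6 against 7.77 to 8.75 (median 8.30) and fell by 1.88 (SE 0.25, adjusted p = 3.68e-07). Epcam, an epithelial adhesion molecule, fell by 1.86, the tight junction genes Cldn7, Cldn4, F11r and Ocln (-1.68, -1.37, -1.47 and -0.98). The epithelial transcription factors Ehf and Grhl2 fell (-2.78 and -1.73), with Ehf at 6.46 in OT2, 5.86 in OT3 and 5.45 in OT6 against 8.31 to 8.93 (median 8.73). Desmosomal genes did not pass the test, with Dsp at -0.35, Jup at -0.19, Pkp2 at 0.08 and Pkp3 at -0.13. Tspan1, a tetraspanin of secretory epithelia, measured 5.41 in OT2, 5.56 in OT3 and 4.57 in OT6 against 9.80 to 10.47 (median 10.23). With AUC as a covariate 9 of the 22 fell.

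Mesenchymal transition genes moved both ways. Of 13 measured, 2 rose and 5 fell (median -0.37), against 12.8% and 9.59% of all probe sets. Cdh2, the gene of N-cadherin, which neurons also express, rose by 1.09 (6.60 in OT2, 6.01 in OT3 and 7.39 in OT6; early 5.14 to 5.72 (median 5.67)), and Tgfb2 by 0.53. The transcription factors Snai2, Prrx1, Twist2 and Twist1 and the filament gene Vim fell (-0.96, -0.72, -0.51, -0.37 and -0.45). With AUC as a covariate 2 of these 13 fell, as they did without OT6 or without OT13. Of 10 basal epithelial genes, Dst rose by 0.51 and Itgb4 fell by 0.58, and Trp63 differed by -0.45 (adjusted p = 0.0524) with its late values of 5.82 to 5.97 below the early range of 6.03 to 6.54 (median 6.37). The calls of Prrx1 (OT6 or OT13), Twist2 (OT2, OT11 or OT13), Twist1 (OT6), Vim (OT2, OT3, OT6, OT8, OT9, OT12 or OT13), Dst (OT3) and Itgb4 (OT2) were lost without the tumour named, at an adjusted p of up to 0.33.

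Smooth muscle genes had the highest share of calls of any list. Of 14 smooth muscle genes 12 fell and 0 rose, against 9.59% and 12.8% of all probe sets, with a median of -1.82. Acta2, smooth muscle actin, measured 4.61 in OT2, 5.98 in OT3 and 5.02 in OT6 against 9.21 to 9.65 (median 9.57) and fell by 4.27 (SE 0.45, adjusted p = 3.64e-09). Actg2, enteric actin, measured 5.16 in OT2, 6.60 in OT3 and 6.47 in OT6 against 10.48 to 11.30 (median 10.80), and Cnn1, calponin, 7.12 in OT2, 6.99 in OT3 and 7.80 in OT6 against 10.44 to 10.81 (median 10.72). Synpo2, Tagln, Mylk and Myh11 fell (-4.28, -2.90, -2.26 and -1.85). Myocd, the coactivator of the contractile programme, differed by -0.09 (adjusted p = 0.698), and Tpm2 by -0.56 (adjusted p = 0.218). The mean level of the 14 genes was 6.15 to 6.52 in the late tumours and 8.28 to 8.77 in the early ones.

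Fibroblast genes fell in 5 of 11 cases, where 9.59% of all probe sets fell and 12.8% rose. Dcn, decorin, measured 7.09 in OT2, 7.80 in OT3 and 7.86 in OT6 against 10.37 to 11.15 (median 11.07), a difference of -3.37 (adjusted p = 8.12e-09). Lum, Dpt, Cd34 and Gsn fell (-2.23, -1.29, -1.06 and -0.70), and Gsn was not called with AUC as a covariate (-0.41, adjusted p = 0.0687). Basement membrane genes fell in 6 of 16 cases, led by the laminin subunits Lamc1 (5.60 in OT2, 5.27 in OT3 and 5.64 in OT6; early 7.42 to 8.39 (median 7.83)), Lama2, Lamb2 and the linker gene Nid1. Fibrillar collagen and matrix genes were close to the background, with 2 of 18 lower, Serpinh1, the collagen chaperone (-1.50) and Col3a1 (-0.63), and a median of 0.09. The endothelial list was split, with Cdh5, Emcn and Pecam1 lower (-0.82, -0.80 and -0.61), Tie1 and Vwf higher by 0.54 and 0.55, and the other 7 of 12 genes not called. Leaving out 1 tumour, given in brackets, ended the calls of Col3a1 (OT2, OT3, OT6, OT8, OT9 or OT13), Emcn (OT6) and Tie1 (OT3) (adjusted p of up to 0.198).

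Genes of protein folding in the endoplasmic reticulum fell. Of 25 measured 17 fell and 0 rose (median -1.30), against 9.59% and 12.8% of all probe sets. Among them 11 of 12 chaperones and foldases fell, with a median of -1.65. Hspa5, the chaperone BiP, measured 8.79 in OT2, 9.12 in OT3 and 8.86 in OT6 against 10.47 to 11.61 (median 11.15) and fell by 2.18 (SE 0.35, adjusted p = 1.64e-05). Dnajc3, a co-chaperone of BiP, measured 6.08 in OT2, 5.32 in OT3 and 5.78 in OT6 against 8.35 to 9.18 (median 8.64), and Agr2, a disulfide isomerase of secretory epithelium, 6.63 in OT2, 7.07 in OT3 and 6.12 in OT6 against 8.27 to 10.18 (median 9.78). Calr, Pdia6, Pdia3 and Hyou1 fell (-1.64, -1.73, -1.66 and -1.39). Of the sensors and factors, Atf6 fell by 1.28 and Xbp1, on a B and plasma cell list here (-0.78), while Ern1, Atf4 and Ddit3 did not pass the test (-0.31, -0.72 and -0.38). The list score was -0.71, -0.89 and -0.85 in OT2, OT3 and OT6 and 0.19 to 0.72 early. With AUC as a covariate 16 fell and the median was -0.81.

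The upstream sequences of a pair of these chaperone genes are shown for the endoplasmic reticulum stress element (ERSE), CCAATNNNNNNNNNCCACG, which ATF6 and XBP1 are known to bind with NF-Y. Capitals mark its fixed letters within 250 bases before the RefSeq starts of Hspa5 (chr2:34771840-34772089, plus strand) and Calr (chr8:84846932-84847181, minus strand, with the element on the opposite strand), both in GRCm38.p6.
Hspa5: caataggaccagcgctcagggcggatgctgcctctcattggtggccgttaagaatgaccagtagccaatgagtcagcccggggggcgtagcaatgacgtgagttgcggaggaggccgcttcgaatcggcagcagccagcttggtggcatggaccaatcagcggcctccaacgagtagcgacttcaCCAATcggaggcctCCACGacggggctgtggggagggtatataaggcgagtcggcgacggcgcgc
Calr: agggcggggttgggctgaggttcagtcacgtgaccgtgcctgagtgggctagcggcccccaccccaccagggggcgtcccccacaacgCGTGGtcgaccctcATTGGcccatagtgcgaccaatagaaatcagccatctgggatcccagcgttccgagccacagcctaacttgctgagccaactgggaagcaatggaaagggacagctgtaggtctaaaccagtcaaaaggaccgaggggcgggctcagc
Of 21 list members with a promoter in RefSeq 8 held the element on either strand, namely Hspa5, Hsp90b1, Calr, Canx, Pdia6, Dnajc3, Creld2 and Syvn1, and each of the 8 fell. Over all genes with a promoter the share was 0.130% (0.113% of promoters). The other 7 of the 15 called members with a promoter do not hold these letters in this window.

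B2m, the invariant chain of MHC class I, fell from among the brightest signals on the arrays, with 9.92 in OT2, 9.35 in OT3 and 9.67 in OT6 against 12.52 to 13.32 (median 13.08) and a difference of -3.39 (SE 0.23, adjusted p = 5.45e-14). Of the 10 class I genes measured 4 fell, also H2-K1 (-0.89), Psmb9 (-0.80) and Erap1 (-0.61), and of 6 class II genes 0 were called. Interferon response genes fell in 3 of 19 cases, with Bst2, Gbp3 and Isg20 lower (-1.49, -1.03 and -0.68), 15.8% against 9.59% of all probe sets, with a median of -0.24. Without OT2 the count was 1 of 19, and without OT3 it was 4, with 1 higher. With 1 tumour left out, the calls of Erap1 (OT6), Psmb9 (OT2), Gbp3 (OT2) and Isg20 (OT2, OT6, OT9, OT11 or OT14) were lost, with an adjusted p of up to 0.406.

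Immune cell markers were called at shares on both sides of the 22.4% over all probe sets (12.8% higher and 9.59% lower). The shares were 30.8% for macrophage, 23.5% for T and NK cell and 20% for neutrophil genes. They were 10% for B and plasma cell genes, 0% for mast cell genes and 17.6% for TNF and NF-kB response genes. Of 17 T and NK cell genes 3 rose, Cd8a by 0.64, Cd4 by 0.56 and Ctla4 by 0.51, and Gzmb, the granzyme of cytotoxic cells, fell by 0.77. The Cd4 and Cd8a values were highest in OT3 (7.99 and 7.31), and without OT3 neither was called (adjusted p = 0.328 and 0.116). Macrophage genes fell in 3 of 13 cases, Mertk, Lyz2 and C1qa (-0.70, -0.61 and -0.58), and Msr1 rose by 0.51. Neutrophil genes rose in 2 of 10 cases (Camp 0.60 and Ltf 0.35), B and plasma cell genes fell in 1 of 10 (Xbp1) and mast cell genes were called in 0 of 12. Of 17 TNF and NF-kB response genes, Lcn2 and Nfkbia fell (-1.15 and -0.47) and Il6 rose by 0.33. With AUC as a covariate, as without OT3, 1 T and NK cell gene was higher and 2 were lower. With the covariate Ctla4 was not called (0.36, adjusted p = 0.0513), 2 macrophage genes were lower and 0 higher, and 0 genes were called in the neutrophil, B and plasma cell, and TNF lists. Without OT2 or OT12 0 macrophage genes were called, and without OT3 1. The calls of Cd4 (OT3, OT8, OT9 or OT13), Mertk (OT2, OT3 or OT12), Lyz2 (OT2, OT3, OT6, OT8 or OT12), C1qa (OT2, OT6, OT8, OT9, OT11, OT12 or OT13), Msr1 (OT2, OT3 or OT12), Camp (OT6), Ltf (OT3, OT6 or OT13), Xbp1 (OT2), Lcn2 (OT2, OT6, OT8, OT12 or OT13), Nfkbia (OT3, OT8 or OT13) and Il6 (OT2, OT3, OT11, OT12 or OT13) were lost without the tumour named, at an adjusted p of up to 0.328.

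Matricellular genes, the class to which OPN and SPARC belong, were dominated by Ccn3. This CCN family member, also known as Nov, measured 10.78 in OT2, 10.27 in OT3 and 10.58 in OT6 against 5.91 to 6.26 (median 6.08) and rose by 4.47 (SE 0.35, adjusted p = 2.93e-12). Thbs4, Smoc1, Tnn and Spock2 rose by 0.81, 0.80, 0.67 and 0.46, while Sparcl1 and Postn fell (-2.25 and -1.91), so that 5 of 21 rose and 2 fell (3 and 1 with AUC as a covariate). Over all probe sets 12.8% rose and 9.59% fell. Of the 4 measured SIBLING genes 0 were called. Among 18 genes of OPN receptors and of proteases and inhibitors that act with OPN, the integrin subunits Itga8 and Itgav fell (-1.23 and -0.36) and Timp2 and Mmp14 (-1.50 and -0.72), 4 in all, and 2 without OT2 or without OT6, with 1 higher without OT6. The share called in this list, 22.2%, was near the 22.4% of all probe sets called either way. Cd44 measured 4.11 in OT2, 3.84 in OT3 and 3.50 in OT6 against 3.80 to 4.65 (median 3.99) and Itgb3 6.67 in OT2, 6.83 in OT3 and 6.65 in OT6 against 6.41 to 6.79 (median 6.63), and neither passed the test. Leaving out 1 tumour, given in brackets, ended the calls of Tnn (OT3, OT6, OT8 or OT9), Spock2 (OT2, OT3, OT12, OT13 or OT14), Postn (OT2 or OT6), Itgav (OT2 or OT6) and Mmp14 (OT2 or OT6) (adjusted p of up to 0.559).

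Hypoxia and glycolysis genes rose in 3 of 15 cases. Over all probe sets 12.8% rose, 9.59% fell and 22.4% were called either way. Vegfa, the endothelial growth factor, measured 10.54 in OT2, 10.33 in OT3 and 10.46 in OT6 against 8.97 to 9.66 (median 9.57) and rose by 0.97 (SE 0.21, adjusted p = 0.000967), Ndufa4l2 rose by 0.65 and Pfkp by 0.46. Of 23 genes of Wnt, Notch and Hedgehog signalling 2 rose, the Notch target Hey1 by 0.95 and the Wnt effector Lef1 by 0.64, which is below the 12.8% over all probe sets. Of 10 genes of polyamine and citrate metabolism 2 fell, the spermidine synthase gene Srm (-1.03) and the zinc transporter gene Slc39a1 (-0.46). With 1 tumour left out, the calls of Ndufa4l2 (OT3), Pfkp (OT2, OT6, OT8, OT9, OT11 or OT13) and Srm (OT3 or OT12) were lost, with an adjusted p of up to 0.362.

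Some genes of tissues next to the prostate were lower late. The shares called were 37.5% for seminal vesicle and PATE, 66.7% for urothelial, 33.3% for skeletal muscle and 20% for adipose genes. Over all probe sets 22.4% were called either way and 9.59% lower. Svs5, a seminal vesicle secretory gene, measured 5.37 in OT2, 5.56 in OT3 and 4.98 in OT6 against 11.69 to 13.03 (median 12.49) and fell by 7.11 (SE 1.96, adjusted p = 0.00755). Of 8 seminal vesicle genes 3 fell, and the others, such as Svs6 with an early range of 5.04 to 9.52 (median 5.79), did not pass the test. The 3 were Svs5, Svs2 (-4.32) and Pate4, which was listed with them (-4.63). Of 8 PATE genes, which are expressed in the reproductive tract, Pate14 and Pate9 fell (-5.93 and -5.18) and Pate12 rose by 0.36. Pate14 measured 3.42 in OT2, 3.28 in OT3 and 4.52 in OT6 against 6.15 to 11.17 (median 10.15), its lowest early value being that of OT9. Over both groups of genes 5 of 16 fell and 1 rose, and 3 fell when any 1 of OT2, OT3, OT6 or OT8 was left out. Pate9 measured 5.88 in OT2, 5.34 in OT3 and 5.17 in OT6 against 9.91 to 11.31 (median 10.70), and Pate4, with an early range of 8.07 to 11.32 (median 9.79), lost its call when any 1 of OT2, OT3, OT6 or OT8 was left out (adjusted p = 0.0932, 0.0625, 0.0640 and 0.0547). Urothelial markers fell in 6 of 9 cases, led by Upk1b (5.81 in OT2, 5.70 in OT3 and 6.86 in OT6; early 9.16 to 9.96 (median 9.71)), with Krt7, Psca and Upk1a lower (-0.96, -1.45 and -1.51). With AUC as a covariate 3 of the 9 fell. Skeletal muscle genes fell in 4 of 12 cases (2 without OT2), with Myh1 at 5.45 in OT2, 5.65 in OT3 and 5.88 in OT6 against 6.32 to 9.91 (median 9.03) and Myot, Tnnc2 and Acta1 lower (-1.91, -1.46 and -1.09), and adipose genes in 2 of 10 (1 without OT3 or OT12), with Fabp4 at 6.05 in OT2, 6.0 in OT3 and 6.82 in OT6 against 7.66 to 10.91 (median 9.64) and Plin4 lower (-0.60). The mean level of the 16 seminal vesicle and PATE genes was 5.26 to 5.43 in the late tumours and 6.63 to 8.17 in the early ones, and that of the 12 skeletal muscle genes 6.25 to 6.67 in the late tumours and 6.68 to 9.12 in the early ones. The share of these tissues in each sample is unknown, and their part in the other differences was not tested. The calls of Svs2 (OT2, OT3, OT6, OT8, OT11 or OT12), Pate12 (OT2, OT6, OT9 or OT11), Myh1 (OT2 or OT3), Myot (OT2, OT3, OT6 or OT9) and Fabp4 (OT2, OT3 or OT12) were lost without the tumour named, at an adjusted p of up to 0.201.

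The same comparison of ages in other mice asked whether these changes were shared. In TRAMP tumours with OPN limma called 0 of 22206 probe sets (0%), with 1063 at an unadjusted p under 0.05. In SPARC-null TRAMP tumours 0 were called (0%), with 4747 at an unadjusted p under 0.05 and 1 call in the fit to the compared groups alone. In OPN-null mice without the transgene 0 were called (0%), with 1859 at an unadjusted p under 0.05, 1210 calls when each array had its own weight and 754 without array O7. The difference of progression itself was tested in the same fits. Against TRAMP, 1926 probe sets were more positive in OPN-null TRAMP (8.67%) and 1613 more negative (7.26%). Against SPARC-null TRAMP the counts were 3438 (15.5%) and 2588 (11.7%), and against OPN-null mice without the transgene 811 (3.65%) and 317 (1.43%). These 3 comparisons share the OPN-null TRAMP tumours, and the early SPARC-null tumours were older than the early OPN-null ones by label.

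The leading genes of each group showed the difference singly. Slc25a21, Elavl4 and Pbsn were chosen for their age difference in these OPN-null TRAMP tumours, which the difference of progression contains. That choice favours a large difference of progression and a low p-value for them. Slc25a21 rose by 5.39 in OPN-null TRAMP and differed by 0.16 in TRAMP, -0.04 in SPARC-null TRAMP and 0.39 without the transgene, and the difference of progression against TRAMP was 5.22 (SE 0.34, adjusted p = 6.52e-14). For Elavl4 the age difference was -0.03 in TRAMP, -0.21 in SPARC-null TRAMP and 0.37 without the transgene, and 4.30 for OPN-null TRAMP against TRAMP (adjusted p = 2.42e-14). Pbsn gave 0.15, 0.44 and -0.50, with a difference against TRAMP of -6.35 (adjusted p = 3.46e-07). Neuroendocrine Chga and Insm1 differed from TRAMP by 1.30 and 1.42, and the mitotic gene Cdk1 by 1.23 (adjusted p = 0.000732). Other cell division genes did not pass this test, such as Mki67 (0.63, adjusted p = 0.285) and Ccne2 (0.95, adjusted p = 0.114). For Pcna the difference was 1.39 (adjusted p = 0.00516).

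**Figure D4:**
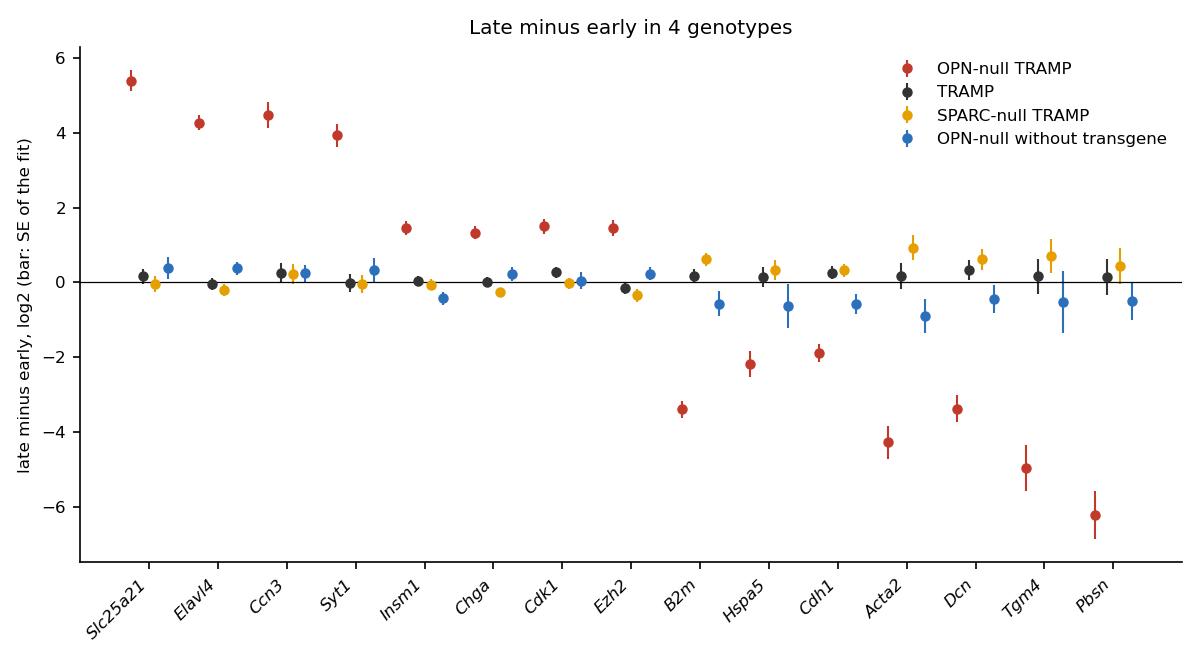
Late-minus-early difference on the log2 scale with its standard error for 15 of the genes described, in OPN-null TRAMP (3 against 6 animals), TRAMP (7 against 7), SPARC-null TRAMP (9 against 6) and OPN-null mice without the transgene (3 against 5). Differences in OPN-null TRAMP run from -6.20 for Pbsn to 5.39 for Slc25a21, while in the other genotypes the same 15 genes stay between -0.90 and 0.93.

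By list, the difference of progression against TRAMP was more positive for 23 of 38 synaptic genes, 10 of 26 neuroendocrine genes and 14 of 32 cell division genes, where 8.67% of all probe sets were. It was more negative for 16 of 32 luminal, 13 of 22 junction, 9 of 14 smooth muscle and 16 of 25 endoplasmic reticulum genes, where 7.26% of all were. The lists were chosen with earlier results of these data known, so these counts describe them and test nothing. Against OPN-null mice without the transgene the endoplasmic reticulum genes were more negative in 3 of 25 cases; in those mice their median age difference was -0.56, with 0 called, and that of the smooth muscle genes -0.59. The late arrays without the transgene had an AUC of 0.678, 0.691 and 0.745 against 0.725 to 0.759 early. Smooth muscle genes were more negative than without the transgene in 5 of 14 cases and luminal genes in 6 of 32, against 1.43% of all probe sets.

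For each of the 12 largest rises, and for the falls of Pbsn, Tgm4, Tspan1, Pigr, Pate9, Actg2 and Defb50, 0 of the 29 TRAMP and SPARC-null TRAMP tumours reached the late OPN-null value nearest to them. The genes were chosen by their values in the same late OPN-null tumours, so these counts describe them and test nothing. List scores, centred here over the 38 transgenic arrays, were 0.85 to 1.06 for synaptic genes in the late OPN-null tumours against -0.22 to 0.14 in those 29. For smooth muscle the ranges were -2.08 to -1.71 against -0.70 to 1.32. Endoplasmic reticulum scores came close, from -0.94 to -0.77 against -0.75 to 0.58, as did cell division scores, from 0.31 to 0.74 against -0.34 to 0.23. Among the 29, the late TRAMP tumour T5 lay nearest to the late OPN-null tumours for 9 of the 12 largest rises. T5 had 8.11 for Ccn3, 9.06 for Syt1 and 5.75 for Elavl3, all below OT3, the lowest late OPN-null value. For Svs5, in contrast, 6 of the 29 tumours were as low as the late OPN-null ones, for Pate4 10 and for Ndufa1 4. The late values were also reached for Pate14, by ST22 at 3.61 against 4.52 in OT6. For Zfp992 they were reached by ST23, at 5.30 against 5.32 in OT6. Svs5 ran from 5.24 to 13.19 within the late TRAMP tumours alone.

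**Figure D5:**
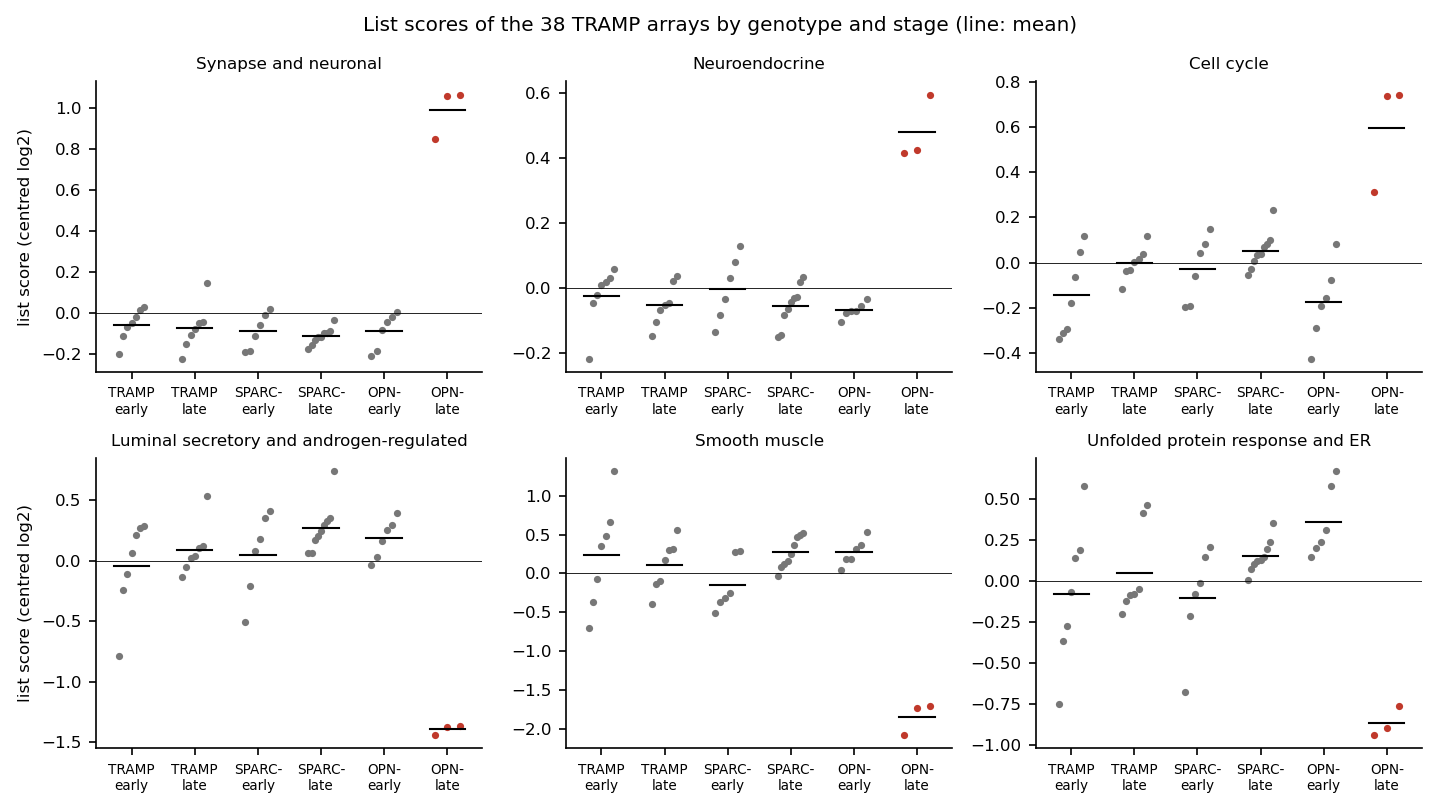
Scores of 6 gene lists in each of the 38 transgenic tumours, by genotype and stage (SPARC- and OPN- are the null TRAMP groups). A score is the mean of the members' log2 values, each centred over the 38 arrays; points are animals and lines group means. The 3 late OPN-null tumours, in red, lie apart from the 29 TRAMP and SPARC-null tumours in each list, by the widest gap for smooth muscle, where they reach at most -1.71 and the others at least -0.70.

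The 3 late tumours differed among themselves in some genes. Among called probe sets with a symbol the widest late ranges were those of Cxcl13, Robo1, Bnc2, Apbb2 and Ak3. Robo1, the axon guidance receptor, measured 9.74 in OT2, 7.08 in OT3 and 10.87 in OT6 against 6.55 to 7.31 (median 7.08), so OT3 lay in the early range while OT2 and OT6 were high. Cxcl13, a chemokine that attracts B cells, measured 4.27 in OT2, 8.21 in OT3 and 5.63 in OT6 against 7.60 to 9.09 (median 7.98), with OT3 inside the early range and the others low, and its call (adjusted p = 0.0311) was lost without OT2, OT6 or OT9 (adjusted p = 0.291, 0.110 and 0.0642). Bnc2, a zinc finger gene, was lowest in OT2 (5.56 in OT2, 7.41 in OT3 and 8.63 in OT6) and Apbb2 in OT3 (9.08 in OT2, 6.54 in OT3 and 9.36 in OT6), against early ranges of 8.80 to 9.27 (median 8.90) and 10.04 to 11.06 (median 10.50). Ak3, a mitochondrial adenylate kinase, measured 5.78 in OT2, 4.34 in OT3 and 6.73 in OT6 against 7.85 to 9.14 (median 8.95). Leaving out 1 tumour, given in brackets, ended the calls of Apbb2 (OT3 or OT13) and Bnc2 (OT2) (adjusted p of up to 0.295). In Pax9, Snap25, Troap and Rtn1 OT3 was likewise the late tumour nearest the early ones, and its SV40 signal of 7.32 and AUC of 0.683 were the lowest of the 3. The tumours of 27 weeks, OT2 and OT3, were not closer to each other than to OT6: OT2 and OT6 correlated at 0.964, the highest of the late pairs.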

How the data were processed

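RNA of 68 mouse prostates and prostate tumours was labelled with biotin and hybridised to 1 array each. The deposited values are log2 signals per probe set that the authors made with RMA in oligo, per the submitters' processing notes, which give no version. Of 29129 probe sets 6923 were controls, 22206 were tested, and 19572 carried 1 gene symbol of the platform annotation, each matched to RefSeq by Entrez number. A gene with several probe sets is given by the brightest. A single array, O12, was left out because its labels conflict. Its title names SPARC-/- TRAMP -/-, while the other arrays with an O code are of OPN-/- mice without the transgene. Linear models were fitted in limma 3.58.1 (R 4.3.3) to 38 transgenic, 29 non-transgenic and all 67 arrays, the last with a weight for transgene status (1.11 and 0.87). Moderated tests were adjusted by Benjamini and Hochberg over all 22206 probe sets, and called means an adjusted p under 0.05. The fit was tested on simulated data. Differences are late minus early on the log2 scale unless stated otherwise.

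The members and gene lists were chosen with earlier results of these data known. Named by rule were Sparc, the 12 largest rises and falls with ranges apart, up to 4 called members of each list, the 5 widest late ranges and the 5 largest of each difference between genotypes, 128 genes. Another 120 list members were chosen as examples after their values were seen. Array quality was the AUC of 1324 positive against 5222 negative control probe sets. Alternatives were a fit to the compared groups, 1 weight per array, a low-signal filter, AUC as covariate or minimum (0.7), median centring, trend and robust moderation, age in weeks and leaving out each array. Promoters are the 250 bases before a RefSeq start in GRCm38.p6.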

Additional observations from a re-analysis of the deposited data

Results flagged for a closer look

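Array OT14, the early tumour of 17 weeks, had an AUC of 0.723 where the other 5 early OPN-null TRAMP arrays had 0.740 to 0.745. Pate14 measured 6.15 in the early tumour OT9 and 9.42 to 11.2 in the other 5. Tgm4 measured 11.3 in the early tumour OT13 and 12.4 to 12.9 in the other 5. Each of these values stood apart from its group by Dixon's criterion, which chance meets in about 1 of 20 groups, and 27 measures were examined. The late values of Tgm4 and Pbsn were far below those of OT13 and of each other early tumour.

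Progression in OPN-null TRAMP tumours differed from that in TRAMP tumours at 3539 probe sets by limma's test of the difference (adjusted p under 0.05), from that in SPARC-null TRAMP tumours at 6026, and from ageing in OPN-null mice without the transgene at 1128. The 3 tests share the OPN-null TRAMP arrays.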

How the results depend on the processing

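Over the alternatives run, 3796 (without OT3) to 5138 probe sets were called between late and early OPN-null TRAMP tumours, and 51.1% to 59.1% of those were higher late. Of the 4969 calls of the main fit, 65.2% (without OT3) to 98.9% (median centring) were called again. Of 248 named genes 176 kept their side of the threshold in each alternative, and over 4204 pairs of gene and alternative 274 lost a call, 20 gained one and 0 reversed. Of the 24 genes with the largest changes 23 kept their call, and Pate4 lost it in 7 alternatives. Suz12 passed the threshold once array quality entered the fit (1.15, adjusted p = 0.000133), and Mcm5 did so without OT3 (0.91, adjusted p = 0.00022). Cpe, Dll3, Eno2, Ern1, Hoxb13, Mcm2, Myc, Scg5 and Trp63 also gained a call in at least 1 alternative. The SV40 difference was 0.47 without OT2 to 0.99 without OT3 when 1 tumour was left out, and passed the exact test without OT13 (0.90, p = 0.0357, n = 3 and 5). Against OPN-null mice without the transgene 751 probe sets were called in a fit to the compared groups alone and 2278 with array quality as a covariate. Against SPARC-null TRAMP the counts were 3983 with 1 weight per array and 2777 with array quality as a covariate. In OPN-null mice without the transgene 1210 were called with 1 weight per array, and 0 to 754 with 1 array left out, the highest without O7. The causes of these moves were not tested. Replicate codes name animals and were not shared between groups. No paired analysis was possible because each code stands for 1 animal of 1 group. The precision is limited by 3 late animals of unequal age, and low values lie within the spread of the negative controls.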

Other observations

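The gene families given here were chosen after their values were seen. Some share members with the lists above. Claudins include the junction genes Cldn7 and Cldn4, and kinesins include the cell division genes Kif20a and Kif11. The counts of these families are thus not separate from those of the lists. Of all probe sets 12.8% were called higher and 9.59% lower in late OPN-null TRAMP tumours. Of 64 histone genes, which package DNA, 42 rose and 0 fell, with a median of 0.64 against 0.06 for all probe sets. H2bc18 measured 9.17 in OT2, 8.13 in OT3 and 8.95 in OT6 against 5.32 to 6.60 (median 6.05) and rose by 2.70, H2bc14 by 2.37 and H2bc12 by 1.76. Kinesins, the motors of spindles and axons, rose in 15 of 34 cases and fell in 3, with Kif23, a motor of the dividing midzone, at 2.12. Protocadherins, adhesion molecules of neurons, rose in 11 of 31 cases and fell in 1, with Pcdh10 at 1.08 and Pcdhb8 at 1.02.

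Of 71 genes of cytosolic ribosomal proteins 44 fell and 0 rose, with a median of -0.93, among them Rps4x (-2.69) and Rpl32 (-2.25). With array quality as a covariate 31 fell with a median of -0.44, and without OT3 26 fell. In OPN-null mice without the transgene the median over the same genes was -0.36, with 0 called. Glutathione transferases, which conjugate reactive compounds, fell in 8 of 21 cases, with Gstm1 at -2.96 and Gstk1 at -2.61. Claudins, strands of tight junctions, fell in 7 of 23 cases with 1 higher. Subunits of mitochondrial complex I fell in 9 of 35 cases against 9.59% of all probe sets, with a median of -0.63. Fitted on the compared groups alone 16 of them fell, without OT3 3, without OT2 or OT9 6, and with array quality as a covariate 4 fell and 1 rose, with a median of -0.11. Olfactory receptor genes rose in 122 of 1091 cases and fell in 5, 11.6% called against 22.4% of all probe sets, and without OT3 50 rose and 9 fell. With array quality as a covariate 41 of them rose and 61 fell, while 49 histone genes rose. Copies of histone, ribosomal protein and protocadherin genes are nearly alike in sequence, so their probe sets may share signal, which was not tested.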
